A study of Sus scrofa with 10 samples.

Results

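The comparison described here sets the livers of pigs supported for 8 days by a cell-filled liver device against the livers of pigs that failed with no device. Post-hepatectomy liver failure is the loss of liver function that follows removal of most of the organ. A bioartificial liver (BAL) is a machine outside the body that passes the animal's blood or plasma over living liver cells, and hiHeps are hepatocyte-like cells made by reprogramming human cells. The series text asks which failure-associated genes return towards their normal level under the device. The members are 4 of the 10 liver libraries, chosen by their titles: 2 libraries of the hiHep-BAL group on day 8 (hiHepD8) and 2 of the No-BAL group on day 2 (NoBAL). Every gene with at least 1 FPKM in at least 2 of the 10 libraries was tested, which kept 12180 of the 31905 genes in the table. FPKM, the unit of all levels here, is fragments per kilobase of transcript, scaled to the mapped fragments of the library. The other libraries are shown as levels: normal liver on day 0 (Control, n = 3), an empty device on day 3 (EmptyBAL, n = 2) and the cell-filled device on day 4 (hiHepD4, 1 library). Only for a few cell division genes is a test of hiHepD8 against Control given.

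All groups carry the genotype WT and the tissue Liver, and no strain, age or further agent is given in the sources used here. Both the device and the day differ between hiHepD8 and NoBAL, so time and treatment cannot be told apart. The labels leave unsaid whether each library had its own animal. The p-values therefore cover the spread among these libraries and no more, which may be technical. The labels name hepatocytes as the cell type, but the protocol describes RNA drawn from whole pig liver and no sorting step. In such bulk RNA, fewer cells of a type and less RNA per cell cannot be told apart. The 5 hepatocyte markers ALB, APOA1, TTR, SERPINA1 and HNF4A were present in all 4 libraries, ALB at 7337 and 7705 FPKM in NoBAL and 13003 and 12980 FPKM in hiHepD8, and HNF4A at 84.6 and 90.3 FPKM and 118 and 119 FPKM.

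After a large resection the remaining hepatocytes enter the cell cycle, build ribosomes and store fat for a time, and their specialised functions are turned down while they do. Those functions include breaking down amino acids, making urea from the ammonia this releases, supplying glucose, secreting plasma proteins and making bile. In liver failure the loss of ammonia clearance and of clotting factors are the features best known to clinicians.

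The 2 day 8 libraries lay very close to each other (Pearson r = 0.992 across genes, which are not independent replicates), and the 2 NoBAL libraries less so (r = 0.956). The FPKM of a library summed to 564816 and 547312 in hiHepD8, but to 791281 and 526565 in NoBAL, and sums of the other groups ran from 439925 to 829970. NoBAL replicate 1 therefore lay with the Control and day 4 libraries by its sum and NoBAL replicate 2 with the day 8 ones. The labels give no batch. A fit without NoBAL replicate 1 compares libraries of like sum, and its values are given where they end a call. Mitochondrially encoded protein genes held 21.29 and 18.24% of the sum in NoBAL and 13.66 and 14.22% in hiHepD8. One unnamed gene (ENSSSCG00000018076) was listed at 0 in NoBAL replicate 1 and held 3.42% of the sum in replicate 2, against 9.15 and 6.0% in hiHepD8. The table holds no counts, so the depth behind each value is unknown.

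Of the 12180 genes, 5764 differed between hiHepD8 and NoBAL, which is 47.3% of those tested (limma on log2(FPKM + 1), two-sided, Benjamini-Hochberg adjusted p under 0.05). Among them 2740 were higher on day 8 (22.5%) and 3024 lower (24.8%). Differences of at least 2-fold were called for 3695 genes (30.3%), 1676 higher and 2019 lower. The log2 change ran from -1.94 at the 5th percentile of genes to 1.79 at the 95th, with a median of -0.03. These changes are on the log2(FPKM + 1) scale and understate those of genes at a few FPKM. With library levels that do not overlap between the groups, 9686 genes (79.5%) would qualify, so the absence of overlap alone sets few genes apart. Lower calls were the more frequent among abundant genes: of the 826 genes whose higher group mean was 100 to 1000 FPKM, 345 were lower and 153 higher, with a median log2 change of -0.68. Among the 5944 genes at 1 to 10 FPKM, 1036 were lower and 1544 higher.

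**Figure D1:**
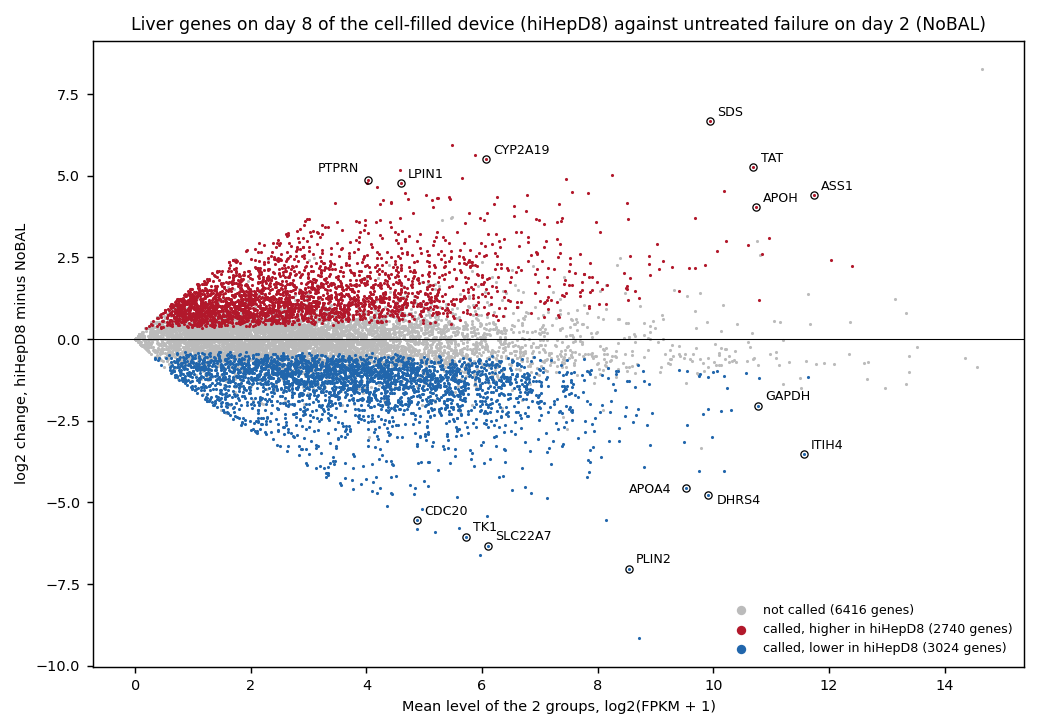
Log2 change of hiHepD8 against NoBAL (vertical axis) for each of the 12180 genes tested, against the log2(FPKM + 1) of the mean of both group means (horizontal axis). Red and blue points are the 2740 genes called higher and the 3024 called lower, grey points are not called, and circled genes are named in the text.

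These counts rest on how the spread is estimated and on how libraries are scaled. The fit takes its spread from the groups with more than 1 library, with 5 residual degrees of freedom. The near-identical day 8 and Control libraries contribute to it, and hiHepD4 with its 1 library does not. The EmptyBAL libraries, which were less alike (Pearson r = 0.893 across genes), contribute too. A gene in which they differ can go uncalled though its NoBAL and day 8 levels do not overlap. With the libraries of hiHepD8 and of Control each averaged to 1, as they would have to be if they came from 1 animal, 297 genes (2.44%) were called, 187 higher and 110 lower, and 296 of them were among the 5764. This setting is called the averaged fit below. It keeps the NoBAL and EmptyBAL libraries separate, though the labels are equally silent on their animals. Its spread comes from those libraries alone. An exact permutation test over 2 against 2 libraries cannot give a two-sided p under 0.333 for any single gene. Scaling to the upper quartile shifted the log2 change of a gene by a median of 0.21 and moved the share of higher calls from 47.54 to 60.12%. Scaling to a common sum without mitochondrially encoded genes and ALB gave a median shift of 0.11 and moved that share to 54.69%. Without NoBAL replicate 1, 5393 genes were called, 4736 of them among the 5764. Called genes named below whose adjusted p was 0.05 or more in that fit after rounding, besides those given with it, were ABCB11, ACMSD, CEBPA, CREB3L3, DECR1, EPHX1, G0S2, HSPA5, HSPB8, KLF9, KYNU, LPIN2, NFE2L2, NR1H4, S100A8, SLC38A3, SLC51A and TIMP1.

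Markers of other cell types are given here because they stand beside every result below. They are read against the 22.5% of all genes called higher and the 24.8% called lower, as are the lists below. Of 20 macrophage markers tested, 9 were called higher and 1 lower on day 8, and their FPKM summed to 196 and 220.5 in NoBAL and 491 and 493 in hiHepD8. Of 31 stellate cell and matrix genes, 11 were higher and 1 lower, with sums of 2812 and 1930 against 2953 and 2960. Of 19 endothelial markers, 5 were higher (26.3%, near the background) and 0 lower, with sums of 352 and 349 against 469 and 481. Of 15 T and NK cell markers, 8 were higher and 0 lower, with sums of 10.8 and 10.3 against 30.6 and 30.3. Of 6 neutrophil markers, 0 were higher and 5 lower, with sums of 239 and 30.1 against 2.02 and 2.68. The B and plasma cell and the red cell and platelet markers were called no more often than all genes. Of 10 B and plasma cell markers, 1 was higher and 2 lower, with sums of 179.6 and 101.9 against 94.1 and 91.9, and of 6 red cell and platelet markers 1 was higher, with sums of 191 and 35.4 against 129.4 and 122.5. In the averaged fit 0 genes of these 7 lists were called. MS4A1 was listed at 0 in both NoBAL libraries and SLC4A1, a red cell membrane protein, in all 4. The part of these cells in the changes below was not tested.

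The 15 genes with the largest rises and the 15 with the largest falls (each with at least 10 FPKM in its higher group) fell into a few recognisable kinds. The rises were led by enzymes that degrade amino acids and choline: SDS, TAT, AASS, CHDH, GNMT and CBS. The falls were mostly genes of dividing cells: TK1, PCLAF, CDC20, UBE2C, CCNB1, MCM4, KIF22 and CDCA3. The rest of the rises were APOD and APOF, which are apolipoproteins, CYP2A19 and FMO1, which oxidise drugs, SLC37A4, the glucose-6-phosphate carrier, LPIN1, a phosphatidate phosphatase, PTPRN and KIF1A, best known from neuroendocrine cells and neurons, and GRB7, a signalling adaptor. The rest of the falls were PLIN2, the coat protein of lipid droplets, SLC22A7, an organic anion carrier, SLC25A47, a liver mitochondrial carrier, S100A12, a neutrophil protein, NME1 and NPM3, and DHRS4, a retinal reductase. All 30 were called without NoBAL replicate 1, and 23 were called in the averaged fit. Between them the log2 change ran from -7.04 (PLIN2) to 6.67 (SDS).

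By absolute level the order was different. The 10 largest rises in mean FPKM included ASS1, TAT, APOH, IGFBP2, HPX, GNMT, SDS, NUPR1 and VTN. The 10 largest falls were ITIH4, RPS2, GAPDH, DHRS4, TF, HPS5, GSTA1, RPS18, APOA4 and ACTG1. Of these 20, 17 were called without NoBAL replicate 1 (TF, GSTA1 and RPS18 were not, at adjusted p = 0.064, 0.074 and 0.14) and 0 in the averaged fit. NUPR1, a stress-responsive chromatin protein, stood at 507 and 132 FPKM in NoBAL and 2058 and 2058 FPKM in hiHepD8 (log2 change 2.99 ± 0.54 SE, adjusted p = 0.0032). HPS5 lies on chromosome 2 (40906785 to 40938847, Sscrofa11.1, RefSeq) beside serum amyloid A genes, and reads of neighbouring genes may have been counted together, so its values are uncertain. The same holds for RPS2, RPS18, GSTA1, CYP2A19 and the actin and tubulin genes, which have near-identical copies.

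**Figure D2:**
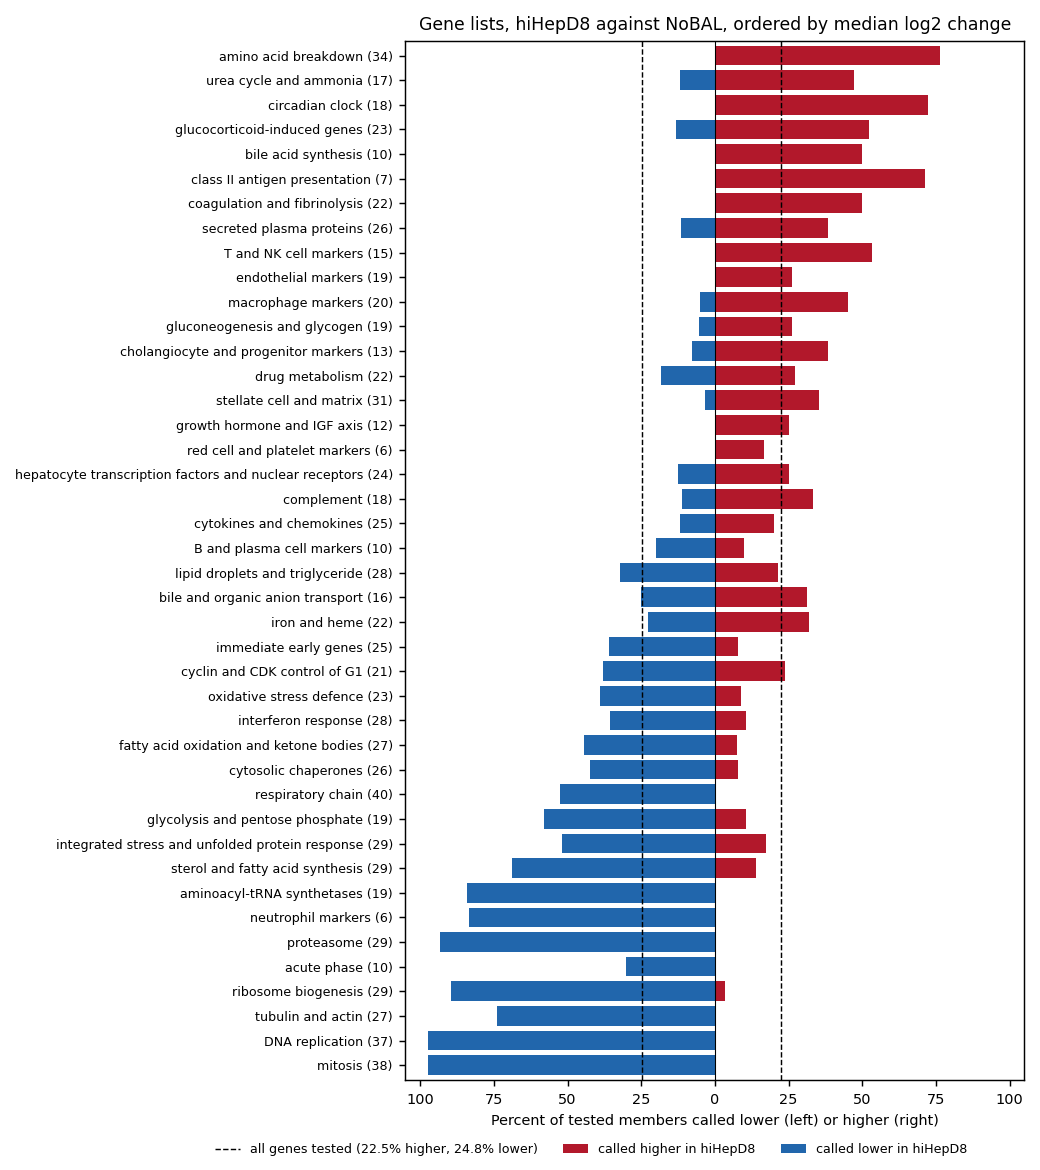
Share of each gene list called lower (blue, left) or higher (red, right) in hiHepD8 against NoBAL, in percent of tested members, whose number is in parentheses. Dashed lines mark the shares among all genes tested, 24.8% lower and 22.5% higher, and lists are ordered by median log2 change from amino acid breakdown (2.57) to mitosis (-2.85).

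Amino acid breakdown was the list with the highest median of the 42. Of its 34 members tested, 26 rose and 0 fell, with a median log2 change of 2.57 against -0.03 over all genes. The upper-quartile scaling called 28 of them higher, the fit without NoBAL replicate 1 24, and the averaged fit 4. SDS, serine dehydratase (chromosome 14, 38503922 to 38513908), which turns serine into pyruvate, was at 17.4 and 18.8 FPKM in NoBAL and 1963 and 1927 FPKM in hiHepD8 (log2 change 6.67 ± 0.81 SE, adjusted p = 0.00053; averaged fit 0.06). Both day 8 libraries were about alike and far above every other library of the series: Control was at 16.1 ± 1.14 FPKM (SD, n = 3), EmptyBAL at 12.1 and 112 FPKM and the day 4 library at 16.2 FPKM. TAT, tyrosine aminotransferase (chromosome 6, 14571311 to 14583203), which starts tyrosine breakdown, was at 116 and 59.9 FPKM in NoBAL and 3236 and 3203 FPKM in hiHepD8 (log2 change 5.25 ± 0.66 SE, adjusted p = 0.00062; averaged fit 0.068). The TAT level on day 4, 753 FPKM, lay between NoBAL and day 8, and both were above the Control level of 242 ± 6.99 FPKM (SD, n = 3).

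The rest of the list covered most routes. TDO2, which opens the tryptophan ring, rose from 49.8 and 28 to 689 and 679.6 FPKM (log2 change 4.16 ± 0.44 SE, adjusted p = 0.00031). KMO, HAAO, KYNU and ACMSD further along the kynurenine route rose too, by 2.84, 2.3, 0.96 and 3.7 on the log2 scale. AASS, the first enzyme of lysine breakdown, rose from 3.5 and 1.26 to 95.8 and 97 FPKM (log2 change 4.93 ± 0.46 SE, adjusted p = 0.00017). Methyl-group enzymes moved with them: GNMT, which uses up S-adenosylmethionine with glycine, rose from 129.7 and 69.1 to 2241 and 2190 FPKM (log2 change 4.53 ± 0.45 SE, adjusted p = 0.00022). CBS, which diverts homocysteine towards cysteine, rose from 21.1 and 16.7 to 437 and 435 FPKM (log2 change 4.47 ± 0.25 SE, adjusted p = 3e-05). CHDH, which oxidises choline to betaine aldehyde, was nearly absent from NoBAL at 0.0469 and 0.26 FPKM and reached 30.1 and 30.2 FPKM on day 8 (log2 change 4.76 ± 0.18 SE, adjusted p = 9.4e-06). BHMT, the enzyme that then uses betaine, was not called, at 532 and 512 FPKM in NoBAL and 415 and 413 FPKM in hiHepD8 (log2 change -0.33 ± 1.18 SE, adjusted p = 0.84). HPD and HGD of the tyrosine route were each higher in both day 8 libraries than in either NoBAL library but not called, HPD at 896 and 284 FPKM in NoBAL and 2986 and 3013 FPKM in hiHepD8 (log2 change 2.57 ± 1.1 SE, adjusted p = 0.091). Such a lack of overlap, in either direction, was seen in 79.5% of all genes tested.

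In the urea cycle the enzymes did not move as one. Of 17 urea cycle and ammonia genes 8 rose (47.1%, against 22.5% of all genes) and 2 fell (11.8%, against 24.8%). The median log2 change was 1.74, with 7 and 1 called without NoBAL replicate 1 and 1 and 0 in the averaged fit. ASS1, argininosuccinate synthase, had the largest gain in FPKM of the named genes, from 436 and 217 to 6361 and 6661 FPKM (log2 change 4.4 ± 0.54 SE, adjusted p = 0.00056). OTC, the step before it, rose from 10.8 and 6.74 to 118 and 121 FPKM (log2 change 3.66 ± 0.29 SE, adjusted p = 8.7e-05). ASL, the step after, rose from 181 and 136 to 780.2 and 780.3 FPKM (log2 change 2.31 ± 0.39 SE, adjusted p = 0.0024). CPS1, which admits ammonia to the cycle, was at 74 and 134 FPKM in NoBAL and 564 and 559.8 FPKM in hiHepD8. Both day 8 libraries were above both NoBAL libraries (79.5% of all genes had no overlap), but the change was not called (log2 change 2.48 ± 1.39 SE, adjusted p = 0.18). The 2 EmptyBAL libraries that share in the estimate of its spread were at 1.6 and 104.9 FPKM. ARG1, which releases urea, was at 1372 and 2692 FPKM in NoBAL and 1269 and 1262 FPKM in hiHepD8 and not called (log2 change -0.60 ± 1.38 SE, adjusted p = 0.75). Enzymes that hand nitrogen to the cycle or release ammonia went both ways. GPT2, alanine aminotransferase of mitochondria, rose from 10.9 and 23.6 to 305 and 297 FPKM (log2 change 4.14 ± 0.84 SE, adjusted p = 0.0053). GLS2, liver glutaminase, rose from 30.1 and 21 to 105.3 and 96.1 FPKM (log2 change 1.96 ± 0.35 SE, adjusted p = 0.0029). GLUD1, glutamate dehydrogenase, fell from 366 and 494 to 59.1 and 59.8 FPKM (log2 change -2.82 ± 0.76 SE, adjusted p = 0.018). SLC25A13, the aspartate carrier that feeds ASS1, fell from 32.6 and 56.3 to 8.11 and 8.27 FPKM (log2 change -2.26 ± 0.49 SE, adjusted p = 0.007). Without NoBAL replicate 1 the adjusted p of GLUD1 was 0.054 and that of SLC25A13 0.014. The amino acid carriers SLC7A2 and SLC38A3 rose by 4.13 and 1.74 on the log2 scale.

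**Figure D3:**
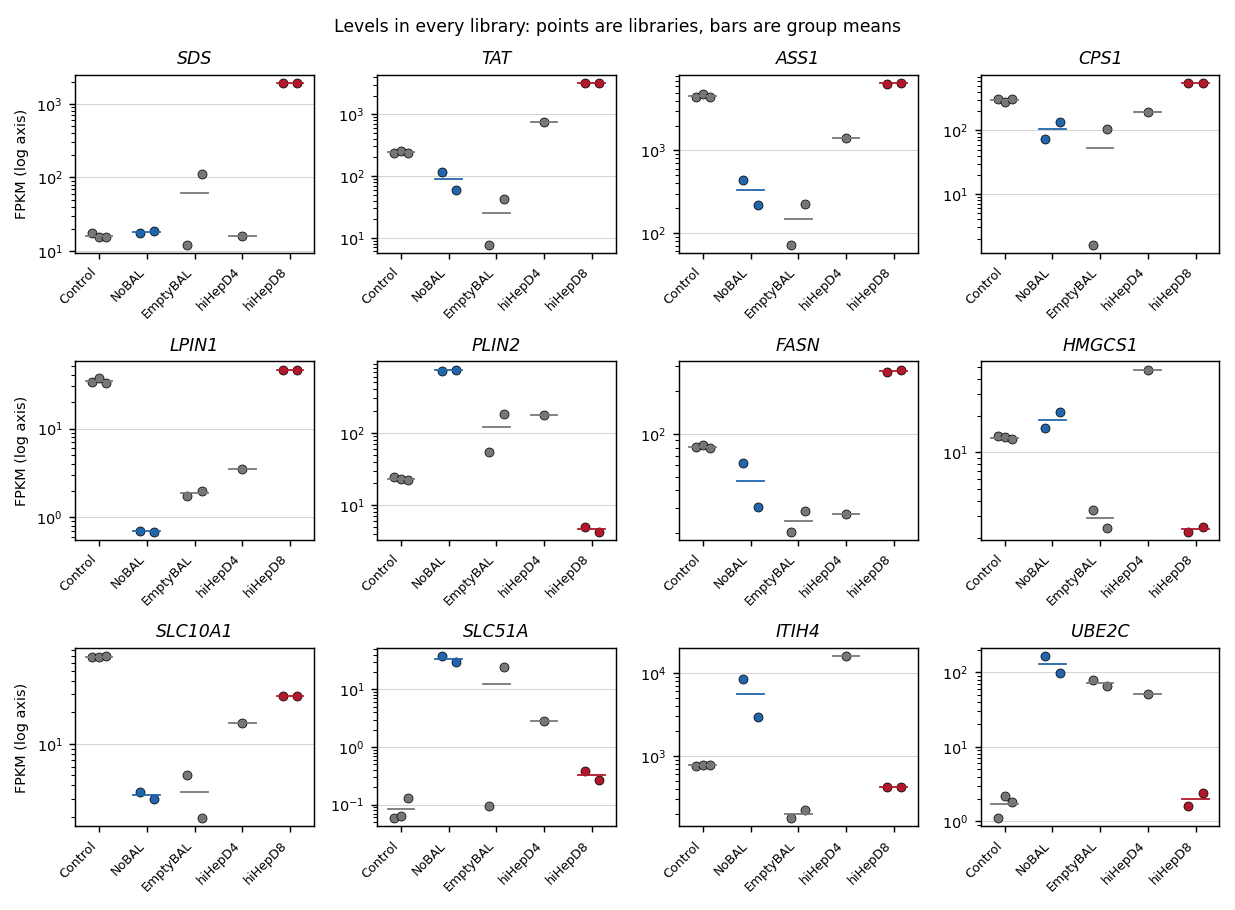
FPKM of 12 genes (log axes) in every library by group, each point a library and each bar a group mean, with NoBAL in blue and hiHepD8 in red. SDS and TAT are highest on day 8 of all groups, PLIN2 and SLC51A fall from NoBAL to day 8, and the EmptyBAL libraries differ from each other in several genes, CPS1 among them.

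Glucose supply genes as a list lay near the background of all genes tested. Of 19 gluconeogenesis and glycogen genes 5 rose (26.3%, against 22.5% of all genes) and 1 fell (median log2 change 0.60; averaged fit 2 and 0). SLC37A4, which carries glucose 6-phosphate to the enzyme that frees glucose, rose from 29.1 and 9.96 to 586 and 582 FPKM (log2 change 5.01 ± 0.44 SE, adjusted p = 0.00013). GYS2, liver glycogen synthase, rose from 11.2 and 13.8 to 202 and 200.1 FPKM (log2 change 3.91 ± 0.23 SE, adjusted p = 3.4e-05). FOXO1 and PPARGC1A, regulators of fasting glucose output, rose by 1.72 and 1.6. PCK1, the enzyme usually taken as the marker of gluconeogenesis, was at 1835 and 642 FPKM in NoBAL and 1487 and 1478 FPKM in hiHepD8, with the day 8 values between those of NoBAL (log2 change 0.45 ± 0.90 SE, adjusted p = 0.71). G6PC1 was at 104.8 and 169.7 FPKM in NoBAL and 422 and 424 FPKM in hiHepD8 and not called (log2 change 1.66 ± 1.0 SE, adjusted p = 0.2).

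Glycolysis and the pentose phosphate route went the other way: 11 of 19 genes fell (57.9%, against 24.8% of all genes) and 2 rose (10.5%, against 22.5%). The median log2 change was -1.05, and the averaged fit called 0 and 0. GAPDH fell from 3460 and 2171 to 666 and 658 FPKM (log2 change -2.05 ± 0.29 SE, adjusted p = 0.0011). The pentose phosphate enzymes TKT and PGD fell from 147 and 119 to 24.1 and 25.9 FPKM (log2 change -2.36 ± 0.23 SE, adjusted p = 0.00022) and from 106 and 179.8 to 27.7 and 30.01 FPKM (log2 change -2.22 ± 0.25 SE, adjusted p = 0.00041). LDHA, the lactate dehydrogenase form of fast-growing tissues, fell from 116 and 118 to 41.5 and 39.5 FPKM (log2 change -1.51 ± 0.18 SE, adjusted p = 0.00054). PFKP, the platelet form of phosphofructokinase, rose from 6.25 and 3.36 to 12 and 10.5 FPKM (log2 change 1.12 ± 0.32 SE, adjusted p = 0.023). PKM, the pyruvate kinase of dividing cells, was at 78.9 and 60.5 FPKM in NoBAL and 24.6 and 24.8 FPKM in hiHepD8 and not called (log2 change -1.45 ± 0.77 SE, adjusted p = 0.15).

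Genes of lipid storage went both ways. PLIN2 (chromosome 1, 203683867 to 203709277) had the largest log2 fall of the named genes, from 724 and 751 to 4.95 and 4.31 FPKM (log2 change -7.04 ± 0.48 SE, adjusted p = 5.5e-05; averaged fit 0.036). Both NoBAL libraries were far above both day 8 libraries, Control was at 23 ± 1.28 FPKM (SD, n = 3), and EmptyBAL and day 4 lay between, at 53.8 and 185 FPKM and 179 FPKM. Other droplet proteins fell with it: CIDEC, which fuses droplets, from 28.9 and 26.6 to 0.874 and 0.987 FPKM (log2 change -3.9 ± 0.39 SE, adjusted p = 0.00023). HILPDA and G0S2, which restrain the lipase ATGL, fell from 21.8 and 27.4 to 3.59 and 4.41 FPKM and from 301 and 86.6 to 14.5 and 20.3 FPKM. LPIN1 (chromosome 3, 124940557 to 125074137), which makes diacylglycerol and also acts as a coactivator, went from near absence, 0.708 and 0.694 FPKM, to 45.1 and 46.1 FPKM (log2 change 4.78 ± 0.14 SE, adjusted p = 6.2e-06; averaged fit 0.03). LPIN2, LPIN3, the fatty acid receptor CD36 and the acyltransferase GPAM rose by 1.54, 2.33, 2.56 and 1.53. In all, 6 of 28 lipid droplet and triglyceride genes rose (21.4%) and 9 fell (32.1%), not far from the 22.5 and 24.8% of all genes. Their median, -0.13, became 0.05 under upper-quartile scaling, so the list as a whole has no stable direction.

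Fat burning genes were lower in part on day 8. Of 27 fatty acid oxidation and ketone genes 12 fell (44.4%, against 24.8% of all genes) and 2 rose (7.4%, against 22.5%). The median log2 change was -0.73, and the averaged fit called 0 and 0. ACSL1, which activates fatty acids, fell from 189 and 197 to 11.3 and 11.6 FPKM (log2 change -3.96 ± 0.51 SE, adjusted p = 0.00073). CPT1A, the gate to mitochondrial oxidation, fell from 41.1 and 85.2 to 5.08 and 5.43 FPKM (log2 change -3.27 ± 0.34 SE, adjusted p = 0.0003). CPT2, ACADVL, HADHA and ACADM behind it fell by 2.44, 2.11, 1.69 and 1.67 on the log2 scale. CREB3L3, a fasting-induced transcription factor, fell from 327 and 283 to 32.6 and 31.3 FPKM (log2 change -3.21 ± 0.85 SE, adjusted p = 0.016). ANGPTL4, a PPAR target that blocks lipoprotein lipase, fell from 303 and 231 to 55.4 and 56.7 FPKM (log2 change -2.22 ± 0.20 SE, adjusted p = 0.00016). DECR1, which prepares polyunsaturated fatty acids for oxidation, rose from 25.8 and 34 to 51.8 and 53.1 FPKM (log2 change 0.80 ± 0.24 SE, adjusted p = 0.028).

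Sterol synthesis and fatty acid synthesis parted from each other. Of 29 genes on the joint list 20 fell and 4 rose (median log2 change -1.31; averaged fit 0 and 1). Among the 4 that rose were SREBF1, the transcription factor of fatty acid synthesis, and its targets FASN and ACACA. FASN rose from 62.5 and 30.5 to 273 and 283 FPKM (log2 change 2.64 ± 0.32 SE, adjusted p = 0.00057). SREBF1 rose from 20.7 and 19.7 to 98.9 and 96.7 FPKM (log2 change 2.22 ± 0.17 SE, adjusted p = 8.1e-05). Genes along the cholesterol route fell. HMGCS1, an early enzyme of that route, fell from 15.8 and 21.2 to 2.25 and 2.45 FPKM (log2 change -2.53 ± 0.19 SE, adjusted p = 8e-05). FDPS fell from 192 and 113 to 12.3 and 13.9 FPKM (log2 change -3.4 ± 0.25 SE, adjusted p = 7.8e-05). SQLE fell from 17.2 and 24.6 to 2.38 and 1.99 FPKM (log2 change -2.76 ± 0.34 SE, adjusted p = 0.00061). SREBF2, the transcription factor of sterol synthesis, fell from 26.4 and 36.2 to 9.72 and 9.8 FPKM (log2 change -1.57 ± 0.18 SE, adjusted p = 0.00047). Control was at 13.2 ± 0.399 FPKM of HMGCS1 (SD, n = 3) and EmptyBAL at 3.35 and 2.42 FPKM. Fatty acid desaturases FADS1 and FADS2 fell by 2.27 and 1.86, whereas SCD was at 5.63 and 10.7 FPKM in NoBAL and 28.1 and 26.6 FPKM in hiHepD8 and not called (log2 change 1.68 ± 0.62 SE, adjusted p = 0.056).

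**Figure D4:**
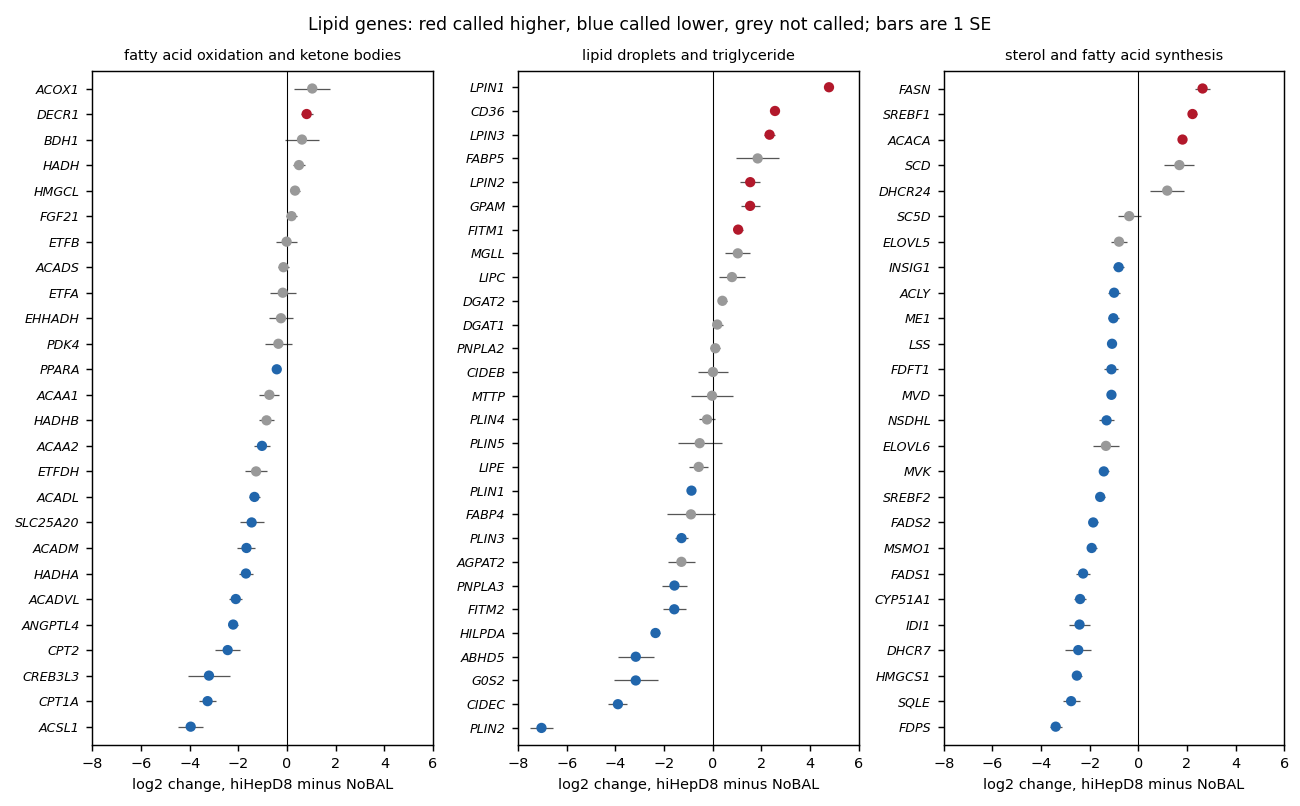
Log2 change of hiHepD8 against NoBAL with its standard error for members of 3 lipid lists, red where called higher, blue where called lower and grey where not called. ACSL1 stands at the bottom of the oxidation list, LPIN1 and PLIN2 at the ends of the droplet list, and FASN, SREBF1 and ACACA above the falling sterol genes.

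Bile acid synthesis genes rose in part, and transporters went both ways. Of 10 bile acid synthesis genes 5 rose (50%, against 22.5% of all genes) and 0 fell (median log2 change 1.10; averaged fit 1 and 0). CYP7A1, the rate-limiting enzyme, was nearly absent in NoBAL at 0.239 and 0.259 FPKM and reached 5.78 and 5.76 FPKM (log2 change 2.44 ± 0.16 SE, adjusted p = 5e-05), below the Control level of 33.4 ± 0.947 FPKM (SD, n = 3). CYP27A1, AKR1D1, ACOX2 and SLC27A5 rose by 1.99, 2.0, 2.63 and 2.29. Of 16 transporters 5 rose (31.3%) and 4 fell (25%), not far from the 22.5 and 24.8% of all genes, and the averaged fit called 1 and 1. SLC10A1, which takes bile salts up from blood, rose from 3.5 and 3.0 to 28.8 and 28.8 FPKM (log2 change 2.81 ± 0.30 SE, adjusted p = 0.00032). ABCB11, the bile salt export pump, rose from 5.98 and 7.89 to 26.8 and 26.1 FPKM (log2 change 1.8 ± 0.56 SE, adjusted p = 0.032). SLC51A and SLC51B, both subunits of the carrier that returns bile salts to blood and that cholestasis induces, fell from 37.5 and 30.6 to 0.385 and 0.271 FPKM (log2 change -4.72 ± 1.16 SE, adjusted p = 0.012) and from 19.99 and 18.5 to 0.473 and 0.407 FPKM (log2 change -3.81 ± 0.68 SE, adjusted p = 0.0031). The SLC51A level of Control was 0.0843 ± 0.0422 FPKM (SD, n = 3), so both NoBAL libraries stood above normal liver and both day 8 libraries near it. SLC22A7, a basolateral organic anion carrier, fell from 158 and 111 to 0.622 and 0.691 FPKM (log2 change -6.33 ± 0.42 SE, adjusted p = 5.1e-05), although Control was at 148 ± 5.05 FPKM (SD, n = 3).

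Drug metabolism genes lay near the background, with 6 of 22 higher (27.3%) and 4 lower (18.2%; median log2 change 0.57; 8 and 2 without NoBAL replicate 1, 1 and 0 in the averaged fit). CYP2A19, a pig P450 of the coumarin hydroxylase family, rose from 4.52 and 0.521 to 127 and 133 FPKM (log2 change 5.5 ± 1.55 SE, adjusted p = 0.021; averaged fit 0.22), while Control was at 5543 ± 90.8 FPKM (SD, n = 3), so the day 8 level remained a small part of normal. CYP1A2 rose from 9.84 and 8.09 to 214 and 204 FPKM (log2 change 4.4 ± 0.65 SE, adjusted p = 0.0012). The flavin monooxygenases FMO1 and FMO5 rose by 4.51 and 3.21. EPHX1, microsomal epoxide hydrolase, fell from 457 and 365 to 63.8 and 68.2 FPKM (log2 change -2.61 ± 0.69 SE, adjusted p = 0.016). CYP2E1 and CYP3A29 were not called, CYP3A29 at 725 and 296 FPKM in NoBAL and 1214 and 1233 FPKM in hiHepD8 (log2 change 1.4 ± 0.99 SE, adjusted p = 0.28).

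Plasma proteins that the liver secretes rose in part. Of 26 tested 10 rose (38.5%, against 22.5% of all genes) and 3 fell (11.5%, against 24.8%; median log2 change 0.71; averaged fit 0 and 0). APOH, which binds phospholipid on lipoproteins and platelets, rose from 337 and 111 to 3205 and 3169 FPKM (log2 change 4.04 ± 0.50 SE, adjusted p = 0.0006). VTN, vitronectin, rose from 471 and 166 to 1816 and 1841 FPKM (log2 change 2.71 ± 0.86 SE, adjusted p = 0.034). HPX, the heme scavenger hemopexin, rose from 1174 and 207 to 3114 and 2855 FPKM (log2 change 2.59 ± 0.91 SE, adjusted p = 0.047). TF, the iron carrier transferrin, fell from 1902 and 2225 to 459.5 and 458 FPKM (log2 change -2.16 ± 0.63 SE, adjusted p = 0.024). APOA4 fell from 481 and 2391 to 43.9 and 45 FPKM (log2 change -4.56 ± 1.41 SE, adjusted p = 0.03). ALB was higher in both day 8 libraries (79.5% of all genes had no overlap) but not called (log2 change 0.79 ± 0.50 SE, adjusted p = 0.23). TTR, transthyretin, stood at 505 and 149.7 FPKM in NoBAL and 385 and 395 FPKM in hiHepD8 against 8607 ± 476 FPKM in Control (SD, n = 3). Clotting genes rose or were not called. Of 22 coagulation and fibrinolysis genes 11 rose (50%, against 22.5% of all genes) and 0 fell (median log2 change 1.0; averaged fit 0 and 0). KNG1, kininogen, rose from 24.5 and 12.3 to 235 and 229 FPKM (log2 change 3.66 ± 0.41 SE, adjusted p = 0.0004). F11 rose from 1.49 and 0.709 to 10.2 and 10.4 FPKM (log2 change 2.45 ± 0.25 SE, adjusted p = 0.00026), and F9, F7, PROC and SERPINC1 (antithrombin) by 1.73, 1.41, 1.47 and 1.48. The fibrinogen genes FGB and FGG, by far the most abundant of the list, were not called, FGB at 9495 and 2296 FPKM in NoBAL and 2748 and 2749 FPKM in hiHepD8 (log2 change -0.76 ± 0.80 SE, adjusted p = 0.46). Of 18 complement genes 6 rose and 2 fell (median log2 change 0.16; averaged fit 0 and 0): C7 rose from 36.5 and 15.5 to 304 and 302 FPKM (log2 change 3.61 ± 0.44 SE, adjusted p = 0.00056). MASP2, a lectin pathway protease, fell from 51 and 22.4 to 3.55 and 3.47 FPKM (log2 change -2.95 ± 0.38 SE, adjusted p = 0.00071).

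Among acute phase proteins, which inflammation raises in liver, few were called. Of 10 tested 3 fell (30%, near the 24.8% of all genes) and 0 rose, and the averaged fit called 0. The median log2 change was -1.58, and -0.56 without NoBAL replicate 1. ITIH4, a major acute phase protein of the pig, fell from 8356 and 2906 to 424 and 429 FPKM (log2 change -3.53 ± 0.46 SE, adjusted p = 0.00074), the largest fall of any named gene in FPKM. Both day 8 libraries were below both NoBAL libraries, and the day 4 library was the highest of all at 15790 FPKM. LBP, which presents bacterial lipopolysaccharide, fell from 110.3 and 34.9 to 5.67 and 5.34 FPKM (log2 change -3.28 ± 0.61 SE, adjusted p = 0.0037). LCN2, which binds bacterial iron carriers, fell from 13.4 and 9.13 to 2.08 and 1.61 FPKM (log2 change -2.09 ± 0.24 SE, adjusted p = 0.00041). HAMP, the iron hormone hepcidin, and CRP were not called, HAMP at 474 and 155 FPKM in NoBAL and 40.6 and 38.1 FPKM in hiHepD8 (log2 change -2.75 ± 1.57 SE, adjusted p = 0.18).

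The transcription factors that define hepatocytes were mostly not called. Of 24 tested 6 rose (25%, near the 22.5% of all genes) and 3 fell (median log2 change 0.26; averaged fit 1 and 0). RXRA, NR1H4 (the bile acid receptor), ATF5 and NR3C1 (the glucocorticoid receptor) rose by 1.13, 1.11, 1.34 and 0.94. CEBPA fell from 59.8 and 45.3 to 22 and 20.4 FPKM (log2 change -1.26 ± 0.30 SE, adjusted p = 0.01). HNF4A and FOXA2 were not called, HNF4A with a log2 change of 0.43 (adjusted p = 0.72). Both day 8 libraries were above both NoBAL libraries in HNF4A, though 79.5% of all genes had no overlap. The EmptyBAL libraries, which share in the estimate of the spread of HNF4A, were at 3.15 and 46.55 FPKM. In the growth hormone and IGF axis 3 of 12 rose (25%, near the 22.5% of all genes; averaged fit 0). IGFBP2, which binds IGFs in blood, rose from 435 and 312 to 2791 and 2665 FPKM (log2 change 2.88 ± 0.27 SE, adjusted p = 0.00019), and IRS2 and IGFBP4 by 1.66 and 1.46. IGFALS and GHR, the growth hormone receptor, were not called. IGFALS stood at 3.09 and 1.42 FPKM in NoBAL and 1.9 and 2.34 FPKM in hiHepD8 against 193 ± 5.34 FPKM in Control (SD, n = 3).

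Genes known to respond to glucocorticoids and the genes of the body clock were mostly higher. Of 23 glucocorticoid-induced genes 12 rose and 3 fell (median log2 change 1.26; averaged fit 0 and 0), SDS, TAT and TDO2 among the 12. TSC22D3, a widely used marker of the hormone, rose from 16.9 and 13.5 to 116 and 112 FPKM (log2 change 2.84 ± 0.20 SE, adjusted p = 6.4e-05). ERRFI1, a brake on EGF receptor signalling, rose from 57.1 and 24.5 to 459.5 and 455 FPKM (log2 change 3.57 ± 0.58 SE, adjusted p = 0.002). FKBP5, DUSP1 and KLF9 rose by 1.47, 1.29 and 1.26. SGK1, ANGPTL4 and LCN2 fell, SGK1 from 149.7 and 100.3 to 52 and 51.8 FPKM (log2 change -1.22 ± 0.23 SE, adjusted p = 0.0038). PCK1 and IGFBP1 were not called. Of 18 clock genes 13 rose and 0 fell (median log2 change 1.27; 10 without NoBAL replicate 1; averaged fit 0). Both arms of the clock were among them. ARNTL, its activator, rose from 1.71 and 1.81 to 10.9 and 10.1 FPKM (log2 change 2.06 ± 0.22 SE, adjusted p = 0.00033). The repressor PER1 rose from 53.8 and 37.5 to 199.7 and 202 FPKM (log2 change 2.13 ± 0.24 SE, adjusted p = 0.00039). The output factors TEF and DBP rose from 1.09 and 1.89 to 15.7 and 14.7 FPKM (log2 change 2.72 ± 0.21 SE, adjusted p = 8.2e-05) and from 0.873 and 0.38 to 6.73 and 7.75 FPKM (log2 change 2.35 ± 0.34 SE, adjusted p = 0.0013). The hour of tissue collection is unknown here, and its part was not tested. Of 25 immediate early genes, which cells switch on within minutes of a stimulus, 9 fell (36%, against 24.8% of all genes) and 2 rose (8%, against 22.5%). The median log2 change was -0.41, and the averaged fit called 1 and 0. IER3 fell from 105.3 and 99.8 to 6.33 and 7.92 FPKM (log2 change -3.68 ± 0.22 SE, adjusted p = 3.6e-05). FOS fell from 36.4 and 16.7 to 5.1 and 5.06 FPKM (log2 change -2.08 ± 0.38 SE, adjusted p = 0.0034). ATF3 fell from 14.7 and 10.2 to 1.07 and 0.875 FPKM (log2 change -2.75 ± 0.23 SE, adjusted p = 0.00011).

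Cell division genes fell nearly without exception, and their 2 lists had the highest share of called members of the 42. Of 37 DNA replication genes 36 fell and 0 rose (median log2 change -2.61; averaged fit 14), and of 38 mitosis genes 37 fell and 0 rose (median -2.85; averaged fit 22). Their FPKM summed to 1182 and 1080 (replication) and 1153 and 857 (mitosis) in NoBAL, and to 112.9 and 111.2, and 54.9 and 51.5, in hiHepD8. TK1, the thymidine kinase of S phase, fell from 141 and 65.4 to 0.404 and 0.511 FPKM (log2 change -6.06 ± 0.34 SE, adjusted p = 3e-05). PCLAF, which binds the replication clamp, fell from 45.8 and 96.3 to 0.177 and 0.0899 FPKM (log2 change -5.9 ± 0.35 SE, adjusted p = 3.3e-05). MCM4 of the replicative helicase fell from 37.4 and 70.4 to 0.762 and 1.17 FPKM (log2 change -4.74 ± 0.28 SE, adjusted p = 3.3e-05). UBE2C, which drives exit from mitosis, fell from 163 and 98.4 to 1.59 and 2.44 FPKM (log2 change -5.42 ± 0.30 SE, adjusted p = 3e-05). CDC20, its partner in the anaphase-promoting complex, fell from 65.9 and 47.6 to 0.277 and 0.154 FPKM (log2 change -5.55 ± 0.19 SE, adjusted p = 7.4e-06). CCNB1, mitotic cyclin B1, fell from 37.8 and 40.2 to 0.228 and 0.0765 FPKM (log2 change -5.12 ± 0.42 SE, adjusted p = 9.8e-05). All 6 were called in the averaged fit, at adjusted p from 0.030 to 0.042. Control lay far below NoBAL, UBE2C at 1.71 ± 0.554 FPKM (SD, n = 3) and TK1 at 3.12 ± 0.727 FPKM, whereas the day 4 library was at 51.8 FPKM of UBE2C. TK1, PCLAF and CDC20 were lower on day 8 than in Control (log2 change -1.48, -1.86 and -0.77, limma adjusted p = 0.009, 0.0036 and 0.013). UBE2C, MCM4 and CCNB1 did not differ from Control by that test (adjusted p = 0.69, 0.32 and 0.65). Levels on both sides were low, CDC20 at 1.07 FPKM in Control. These p-values rest in part on the near-identical Control and day 8 libraries, and no averaged fit of this comparison was made. The exceptions were CCNE2 and CDC25B, which were not called, CDC25B at 8.38 and 7.87 FPKM in NoBAL and 7.19 and 7.43 FPKM in hiHepD8 (log2 change -0.14 ± 0.36 SE, adjusted p = 0.78). Proliferation genes are expressed by any dividing cell, and which cells carried them cannot be told from bulk RNA.

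Regulators of the G1 phase went both ways. Of 21 tested 5 rose (23.8%, near the 22.5% of all genes) and 8 fell (38.1%, against 24.8%). The median log2 change was -0.61, with 5 and 5 called under upper-quartile scaling and 1 and 0 in the averaged fit. The 5 that rose were brakes on the cycle: CDKN1B (p27) rose from 6.85 and 7.77 to 36.2 and 41.7 FPKM (log2 change 2.26 ± 0.15 SE, adjusted p = 5.7e-05). CDKN1C (p57) rose from 2.08 and 0.472 to 21.1 and 20.4 FPKM (log2 change 3.35 ± 0.42 SE, adjusted p = 0.00066). The retinoblastoma relative RBL2 rose from 2.14 and 1.89 to 20.2 and 19.4 FPKM (log2 change 2.79 ± 0.18 SE, adjusted p = 4e-05), with RB1 and BTG1 higher by 0.61 and 1.29. CCND1, cyclin D1, fell from 56.9 and 47.4 to 4.81 and 4.63 FPKM (log2 change -3.21 ± 0.31 SE, adjusted p = 0.0002), and its kinase CDK4 from 78.3 and 85.7 to 34.4 and 34.1 FPKM (log2 change -1.24 ± 0.18 SE, adjusted p = 0.0013). MYC fell by 0.89. Some brakes fell too, among them CDKN2C (p18) from 15.3 and 28.1 to 4.79 and 5.14 FPKM (log2 change -1.87 ± 0.27 SE, adjusted p = 0.0012). The retinoblastoma relative RBL1 fell from 2.66 and 2.99 to 0.908 and 0.737 FPKM (log2 change -1.07 ± 0.14 SE, adjusted p = 0.00074). CDKN1A (p21) was at 32.5 and 64.7 FPKM in NoBAL and 17.2 and 17.6 FPKM in hiHepD8 and not called (log2 change -1.35 ± 0.48 SE, adjusted p = 0.051).

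Ribosome biogenesis, aminoacyl-tRNA synthetase and proteasome genes fell nearly throughout, and cytosolic chaperone and respiratory chain genes in part. Among all genes 24.8% fell and 22.5% rose. Of 29 ribosome biogenesis genes 26 fell and 1 rose (median log2 change -1.65; averaged fit 2 and 0), of 19 aminoacyl-tRNA synthetases 16 fell and 0 rose (-1.43; 0), and of 29 proteasome subunits 27 fell and 0 rose (-1.56; 0). NPM3, a nucleolar histone chaperone, fell from 93.1 and 87.1 to 2.3 and 2.1 FPKM (log2 change -4.83 ± 0.25 SE, adjusted p = 2.4e-05; averaged fit 0.032), and FBL, which methylates ribosomal RNA, from 239 and 188 to 36.2 and 38 FPKM (log2 change -2.48 ± 0.19 SE, adjusted p = 8.2e-05). RCL1, also of the ribosome list, rose from 32.5 and 35.3 to 212 and 212 FPKM (log2 change 2.61 ± 0.36 SE, adjusted p = 0.00096). HARS1, the histidine enzyme, led the falling synthetases from 59.7 and 53 to 7.69 and 7.99 FPKM (log2 change -2.7 ± 0.17 SE, adjusted p = 3.8e-05). QARS1, KARS1 and IARS1 were not called. PSMD14, the deubiquitinase at the proteasome's entrance, fell from 46.9 and 69.97 to 6.87 and 6.55 FPKM (log2 change -2.92 ± 0.30 SE, adjusted p = 0.00028). Of 26 cytosolic chaperones 11 fell (42.3%) and 2 rose (7.7%; median -0.77; averaged fit 0). CCT3 of the actin and tubulin folding ring fell from 222 and 242 to 54.5 and 54.5 FPKM (log2 change -2.07 ± 0.43 SE, adjusted p = 0.0062), and HSPB8 and DNAJB4 rose by 1.9 and 1.72. Of 40 nuclear respiratory chain genes 21 fell (52.5%) and 0 rose (median -0.99). The count of 21 dropped to 12 under upper-quartile scaling and to 12 without NoBAL replicate 1. CYCS, cytochrome c, fell from 128 and 86.4 to 21.1 and 21.4 FPKM (log2 change -2.25 ± 0.24 SE, adjusted p = 0.0003).

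The folding machinery of the endoplasmic reticulum fell, while a few stress genes rose. Of 29 genes of the integrated stress and unfolded protein responses 15 fell (51.7%, against 24.8% of all genes) and 5 rose (17.2%, against 22.5%). The median log2 change was -1.18, and the averaged fit called 0 and 0. CRELD2 and MANF, secreted folding factors that respond to stress, fell from 199 and 62.6 to 7.32 and 8.32 FPKM (log2 change -3.68 ± 0.46 SE, adjusted p = 0.00062) and from 479 and 136 to 26.4 and 24.5 FPKM (log2 change -3.28 ± 0.51 SE, adjusted p = 0.0016). HSPA5, the central chaperone BiP, fell from 421 and 142 to 35.9 and 34.7 FPKM (log2 change -2.76 ± 0.63 SE, adjusted p = 0.0091). The 5 that rose were SESN2, DDIT4, VLDLR, CHAC1 and HERPUD1. SESN2 and DDIT4, both inhibitors of the growth kinase mTORC1, rose from 8.44 and 8.74 to 58.1 and 55.1 FPKM (log2 change 2.59 ± 0.43 SE, adjusted p = 0.0022) and from 147 and 28.1 to 278 and 272 FPKM (log2 change 2.07 ± 0.68 SE, adjusted p = 0.038). Of 23 oxidative stress genes 9 fell (39.1%, against 24.8% of all genes) and 2 rose (8.7%, against 22.5%; median -0.64). SRXN1, which repairs peroxiredoxins, fell from 49.1 and 168 to 5.67 and 4.83 FPKM (log2 change -3.88 ± 0.58 SE, adjusted p = 0.0013). PRDX1 fell from 547 and 335 to 41.9 and 43.4 FPKM (log2 change -3.3 ± 0.25 SE, adjusted p = 8e-05). TXNRD1 fell from 31.9 and 77.6 to 9.78 and 10.03 FPKM (log2 change -2.22 ± 0.35 SE, adjusted p = 0.0017). NFE2L2 (NRF2), the transcription factor that drives all 3 of these, rose from 18.4 and 21.6 to 43.8 and 42.8 FPKM (log2 change 1.08 ± 0.26 SE, adjusted p = 0.012).

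Genes of the cytoskeleton fell in the same samples. Of 27 tubulin and actin genes 20 fell and 0 rose (median log2 change -2.0; averaged fit 4), and their FPKM summed to 9616 and 8395 in NoBAL and 2468 and 2469 in hiHepD8. TUBB4B fell from 495 and 359 to 21 and 21.8 FPKM (log2 change -4.24 ± 0.21 SE, adjusted p = 2e-05). TUBB fell from 824 and 852 to 54.8 and 54.8 FPKM (log2 change -3.91 ± 0.17 SE, adjusted p = 1.5e-05). ACTB fell from 1637 and 1368 to 305 and 304 FPKM (log2 change -2.29 ± 0.31 SE, adjusted p = 0.00085). ACTA2, the smooth muscle actin of activated stellate cells, was at 397 and 319 FPKM in NoBAL and 166 and 169 FPKM in hiHepD8 and not called (log2 change -1.08 ± 0.41 SE, adjusted p = 0.062).

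Iron and interferon genes went both ways, the iron list at shares not far from the 22.5% higher and 24.8% lower of all genes. Of 22 iron and heme genes 7 rose (31.8%) and 5 fell (22.7%; median log2 change -0.40; 5 and 2 without NoBAL replicate 1, 1 and 0 in the averaged fit). BMP6, the signal that raises hepcidin and that sinusoidal endothelial cells make, rose from 2.08 and 4.4 to 66.2 and 65.1 FPKM (log2 change 4.03 ± 0.32 SE, adjusted p = 8.6e-05). TFR2, a sensor of transferrin iron, rose from 121 and 46.9 to 382 and 380.1 FPKM (log2 change 2.32 ± 0.54 SE, adjusted p = 0.0099). UROD, of heme synthesis, fell from 64.2 and 48.8 to 10.5 and 12.8 FPKM (log2 change -2.18 ± 0.25 SE, adjusted p = 0.0004). Of 28 interferon response genes 10 fell (35.7%, against 24.8% of all genes) and 3 rose (10.7%, against 22.5%). Their median was -0.71, with 15 and 0 called without NoBAL replicate 1 and 6 and 4 under upper-quartile scaling. ISG15, a ubiquitin-like protein, fell from 448 and 419.7 to 32.8 and 29.6 FPKM (log2 change -3.76 ± 0.23 SE, adjusted p = 3.8e-05). The antiviral MX1 fell from 21.2 and 54.6 to 8.25 and 8.23 FPKM (log2 change -1.93 ± 0.45 SE, adjusted p = 0.0099).

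Among genes of other cells, 9 of 20 macrophage markers rose (45%, against 22.5% of all genes) and 1 fell. C1QB of complement C1q rose from 29.9 and 23.3 to 124 and 118 FPKM (log2 change 2.15 ± 0.33 SE, adjusted p = 0.0015). The scavenger receptor CD163 rose from 11.06 and 10.4 to 42.1 and 45.7 FPKM (log2 change 1.94 ± 0.18 SE, adjusted p = 0.00016). GPNMB, known from lipid-laden macrophages, rose from 2.42 and 19.2 to 52.8 and 53.8 FPKM (log2 change 2.71 ± 0.69 SE, adjusted p = 0.014). MARCO, another scavenger receptor of the same cells, fell from 10.1 and 11 to 1.48 and 1.01 FPKM (log2 change -2.37 ± 0.45 SE, adjusted p = 0.0041). CD68 was at 10.7 and 21.9 FPKM in NoBAL and 25.7 and 25.7 FPKM in hiHepD8 and not called (log2 change 0.70 ± 0.30 SE, adjusted p = 0.085). Of 7 class II antigen presentation genes 5 rose and 0 fell (median log2 change 1.01), and CIITA, the master regulator of these genes, rose from 1.59 and 0.776 to 4.43 and 4.19 FPKM (log2 change 1.31 ± 0.36 SE, adjusted p = 0.019), while CD74 was not called. The T cell genes CD2 and CD3E rose from 0.127 and 0.0992 to 2.69 and 2.46 FPKM (log2 change 1.68 ± 0.14 SE, adjusted p = 9.8e-05) and from 0.346 and 0.081 to 2.35 and 3.11 FPKM (log2 change 1.62 ± 0.23 SE, adjusted p = 0.00097), from levels close to 0. The neutrophil gene S100A12 fell from 170.5 and 20.4 to 0.234 and 0 FPKM (log2 change -5.77 ± 1.08 SE, adjusted p = 0.0037), and its 2 NoBAL libraries differed widely. S100A8, of the same cells, fell from 60.5 and 3.58 to 0 and 0.393 FPKM (log2 change -3.83 ± 1.18 SE, adjusted p = 0.029). Without NoBAL replicate 1, 3 neutrophil markers were called lower.

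Chemokines that call cells in went both ways. Of 25 cytokine and chemokine genes 5 rose (20%) and 3 fell (12%), no more than among all genes (median log2 change 0.02; averaged fit 0). CCL2, which draws monocytes, fell from 84.1 and 35.7 to 1.71 and 1.73 FPKM (log2 change -4.36 ± 0.59 SE, adjusted p = 0.00088). IL18 fell from 11 and 3.44 to 0.943 and 0.986 FPKM (log2 change -1.9 ± 0.42 SE, adjusted p = 0.0075), and CXCL10 by 0.85. CXCL12, made by stromal and sinusoidal cells, rose from 8.06 and 5.39 to 64.4 and 65.3 FPKM (log2 change 3.11 ± 0.52 SE, adjusted p = 0.0022). CCL21, of lymphatic endothelium, rose from 47.3 and 4.95 to 161 and 166 FPKM (log2 change 3.28 ± 0.79 SE, adjusted p = 0.011). The endothelial genes CLEC4G, of sinusoids, and VWF, the platelet-binding factor of larger vessels, rose from 7.65 and 2.29 to 46.3 and 46.4 FPKM (log2 change 3.15 ± 0.52 SE, adjusted p = 0.0022) and from 5.64 and 1.87 to 17.5 and 17.8 FPKM (log2 change 2.09 ± 0.52 SE, adjusted p = 0.013). PECAM1, present in all endothelium, was at 26.5 and 56.6 FPKM in NoBAL and 48.2 and 49.96 FPKM in hiHepD8 and not called (log2 change 0.33 ± 0.56 SE, adjusted p = 0.65).

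Stellate cell and matrix genes rose in part, and the main fibrillar collagens were not called. MMP2, a gelatinase, rose from 67.1 and 14 to 228 and 223 FPKM (log2 change 2.83 ± 0.61 SE, adjusted p = 0.0068). VIM, the filament protein vimentin, rose from 106 and 113 to 640.4 and 641 FPKM (log2 change 2.54 ± 0.35 SE, adjusted p = 0.00092). COL14A1 rose from 1.41 and 2.54 to 16.8 and 17.1 FPKM (log2 change 2.62 ± 0.30 SE, adjusted p = 0.00045). COL1A1 was at 331 and 184 FPKM in NoBAL and 178 and 179.7 FPKM in hiHepD8 and COL3A1 at 68.5 and 54.6 FPKM in NoBAL and 85 and 82.7 FPKM in hiHepD8, and neither was called (adjusted p = 0.2 and 0.36). TIMP1, which inhibits matrix proteases, fell from 421 and 121 to 37.6 and 37.5 FPKM (log2 change -2.56 ± 0.89 SE, adjusted p = 0.047). All NoBAL, EmptyBAL and day 8 libraries had more COL1A1 than Control, which was at 30.3 ± 0.885 FPKM (SD, n = 3). Of 13 cholangiocyte and progenitor markers 5 rose (38.5%, against 22.5% of all genes) and 1 fell (7.7%, against 24.8%; median log2 change 0.58). AQP1, a water channel of bile ducts and endothelium, rose from 4.23 and 1.46 to 50.5 and 51.8 FPKM (log2 change 3.86 ± 0.43 SE, adjusted p = 0.00037). The defining markers KRT7, EPCAM and SOX9 were not called, KRT7 at 24.5 and 11.2 FPKM in NoBAL and 19.3 and 21.1 FPKM in hiHepD8 (log2 change 0.26 ± 0.33 SE, adjusted p = 0.53).

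**Figure D5:**
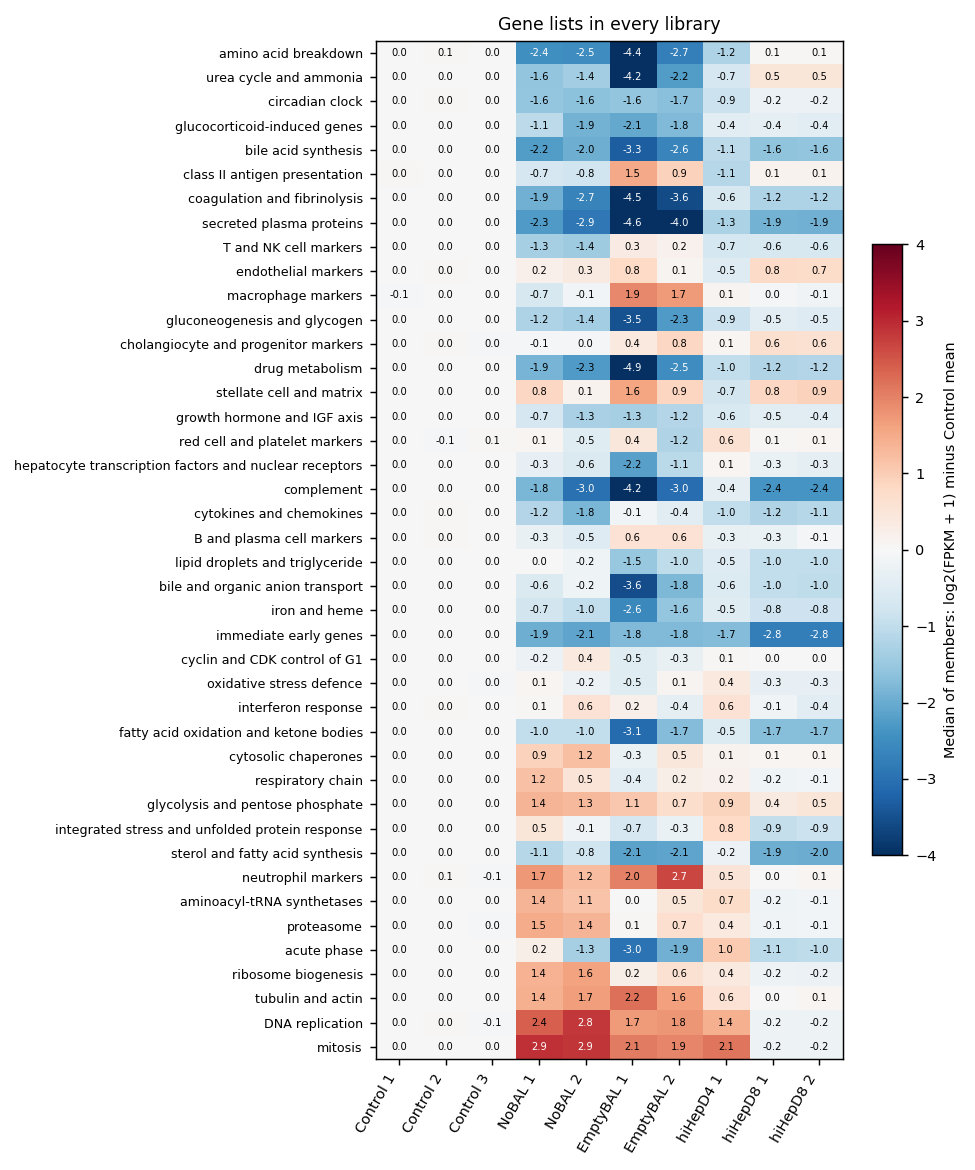
Median over the members of each gene list of log2(FPKM + 1) minus the Control mean, in each of the 10 libraries (columns), with lists (rows) ordered by median log2 change. The amino acid breakdown list stands at -2.44 and -2.48 in NoBAL and 0.06 in both day 8 libraries, and the mitosis list at 2.92 and 2.86 in NoBAL and -0.19 and -0.21 on day 8.

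Set beside normal liver, the lists did not all stand at the same place on day 8. In the heat map of list medians by library, the 2 day 8 values relative to the Control mean were -0.21 and -0.21 for DNA replication, -0.21 and -0.22 for ribosome biogenesis and -0.13 and -0.12 for the proteasome. Secreted plasma protein genes stood at -1.88 and -1.91, complement genes at -2.37 and -2.36, and fatty acid oxidation genes at -1.71 and -1.70. Sterol and fatty acid synthesis genes stood at -1.95 and -2.0, further below Control than the NoBAL values of -1.14 and -0.81. These medians are levels, given without a test, and the Control libraries were taken on day 0.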

How the data were processed

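RNA of 10 pig liver libraries (TruSeq, paired-end reads on an Illumina HiSeq, per the labels' protocols) was processed by the authors with HISAT2, Cufflinks and HTSeq, per the submitters' processing notes, which name the builds Sscrofa11.1 and mm10. Their deposited table gives FPKM per gene, with no counts. Whole reads could not be read off the low values, so no count test was run. In 3 pairs of libraries only 2.55 to 2.78% of genes under 0.2 FPKM shared the commonest ratio between the 2 libraries. Positions come from the RefSeq Sscrofa11.1 table. Libraries were matched to groups by title.

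Genes that reached 1 FPKM in 2 or more libraries were tested on log2(FPKM + 1) with limma 3.58.1 (R 4.3.3; 5 group means, mean-variance trend, 5 residual degrees of freedom), with Benjamini-Hochberg adjustment over 12180 genes and a threshold of 0.05. The procedure was tested on simulated data. Named genes were the 15 largest log2 rises and 15 largest falls among called genes that have a symbol, a mean of 10 FPKM or more in one group and no overlap between the groups' libraries, the 10 largest rises and falls in mean FPKM, and up to 3 called members of each of the 42 lists with the largest rise or fall. Further list members, those not called included, were chosen after their values were seen. The members and lists were chosen with earlier results of these data known. Tables were made with pandas 2.3.3 and numpy 2.4.6 (Python 3.11.15), with plots by matplotlib 3.10.9. Alternatives were other scalings, pseudocounts, filters and fits, each NoBAL and hiHepD8 library left out in turn, the EmptyBAL libraries left out, and a replicate block. Some genes are counted in the lists but not reported here by name. Promoter sequences were not used here.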

Additional observations from a re-analysis of the deposited data

How the results depend on the processing

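With the libraries of hiHepD8 and Control each averaged to 1, calls fell from 5764 to 297 (187 higher, 110 lower), and calls of at least 2-fold from 3695 to 297. Restricting the test to a mean of at least 5 FPKM gave 3525 calls, 1354 of them higher, because fewer genes (7074) were tested. Without the EmptyBAL libraries 7570 genes were called (3616 higher, 3954 lower), the most of the settings run. Leaving out 1 NoBAL or hiHepD8 library at a time gave 3418 to 5393 calls, 1663 to 2539 higher, 1755 to 2880 lower and 2891 to 3634 of at least 2-fold, with the lowest values when a day 8 library was left out. The replicate numbers did not pair the samples (correlations of same-numbered deviations 0.137, 0.009 and 0.033), and a fit with the replicate block gave 4786 calls (2274 higher, 2512 lower). The upper-quartile scaling gave 5782 calls, 3476 higher and 2306 lower. Of the 191 genes chosen by the naming rules, 155 lost their call in the averaged fit, 25 without either NoBAL library and 49 and 52 without day 8 replicate 1 or 2. With no filter on low values 21 lost it, and with the block 11. Under the alternatives run 0 of them reversed direction. They were chosen for large changes, and several of the fits leave the log2 change as it was, so a reversal was hardly possible. Where a call was lost in these fits the cause was not tested. With 2 libraries a group, no raw counts and unknown depth, values of genes near 1 FPKM carry an unknown counting error.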

Other observations

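Genes outside the lists also differed, and those given here were chosen after their values were seen. DPP4, a peptidase that cuts incretin hormones, stood at 2.86 and 3.22 FPKM in NoBAL and 81.8 and 81.2 FPKM in hiHepD8 (log2 change 4.35 ± 0.16 SE, adjusted p = 9e-06, limma). GCGR, the glucagon receptor, rose from 24.2 and 13.1 to 182 and 183 FPKM (log2 change 3.28 ± 0.53 SE, adjusted p = 0.0018). KLF15, a transcription factor of fasting amino acid breakdown, rose from 29.2 and 19.8 to 191 and 198 FPKM (log2 change 2.96 ± 0.66 SE, adjusted p = 0.0082). TXNIP, which restrains glucose uptake, rose from 78.2 and 74.4 to 313 and 308 FPKM (log2 change 2.01 ± 0.41 SE, adjusted p = 0.0054). ULK1, which starts autophagy, rose from 10.5 and 7.67 to 75.3 and 75.4 FPKM (log2 change 2.94 ± 0.18 SE, adjusted p = 3.8e-05). The hepatocyte keratins KRT8 and KRT18 fell from 828 and 911 to 89.7 and 90.8 FPKM (log2 change -3.25 ± 0.49 SE, adjusted p = 0.0014) and from 732 and 454 to 63.8 and 66.5 FPKM (log2 change -3.13 ± 0.52 SE, adjusted p = 0.0022). ODC1 and SRM, of polyamine synthesis, fell from 145 and 189 to 21.1 and 20.9 FPKM (log2 change -2.92 ± 0.37 SE, adjusted p = 0.00065) and from 47.5 and 19.7 to 1.85 and 2.31 FPKM (log2 change -3.37 ± 0.37 SE, adjusted p = 0.00034). GDF15, a stress hormone, fell from 10.5 and 12 to 0.366 and 0.892 FPKM (log2 change -2.93 ± 0.43 SE, adjusted p = 0.0012).

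Some genes passed between near absence and a clear level. A rule chosen after the data were seen asked for under 1 FPKM in both libraries of one group. It also asked for at least 10 FPKM in both libraries of the other. By it 26 of the 12180 genes appeared on day 8 and 53 disappeared. All were called, which the wide gap in the rule nearly ensures. Appearing is meant against NoBAL only, as Control means of the 26 ran from 0 to 35.2 FPKM (CHDH). Those that appeared included VEGFD, a lymphatic growth factor, from 0.142 and 0.165 to 12.9 and 14.7 FPKM (log2 change 3.68 ± 0.35 SE, adjusted p = 0.0002). GAS6, a ligand of phagocyte receptors, rose from 0.79 and 0.342 to 14.5 and 14.2 FPKM (log2 change 3.31 ± 0.19 SE, adjusted p = 3.3e-05). ACE, angiotensin-converting enzyme, rose from 0.933 and 0.362 to 11.9 and 11.4 FPKM (log2 change 2.96 ± 0.27 SE, adjusted p = 0.00017). Those that disappeared included ELOVL2, which lengthens polyunsaturated fatty acids, from 34.5 and 29.1 to 0.248 and 0.334 FPKM (log2 change -4.66 ± 0.51 SE, adjusted p = 0.00034). CTPS1, which makes CTP, fell from 24.1 and 42.1 to 0.889 and 0.669 FPKM (log2 change -4.21 ± 0.36 SE, adjusted p = 0.00012), besides many mitosis genes.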
